A study of Homo sapiens with 9 samples.

Results

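Nucleotide excision repair and base excision repair remove damaged DNA by cutting it out and refilling the gap, and 43 genes of both pathways were followed here across all libraries of the series. They were chosen by name, as the rows of the deposited tables that carry the symbols of 24 nucleotide excision repair genes and 19 base excision repair genes, out of 60683 rows in all. The libraries, 3 in each of 3 groups, hold messenger RNA of human cells that the labels call HCT-15, an established colorectal adenocarcinoma line, with the genotype WT. Untreated cells received no drug. The oxaliplatin cells were given 0.5 µM of the drug for 7 days, then 1, 2 and 4 µM between day 10 and day 30, and were kept in 4 µM afterwards. Sorafenib cells were made resistant in a like manner, with doses that the labels do not give. Oxaliplatin is a platinum compound that forms adducts on DNA, and sorafenib inhibits RAF and receptor tyrosine kinases.

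Nucleotide excision repair removes bulky lesions, among them platinum adducts within a strand. A lesion is found by XPC and its partners anywhere in the genome, or by a stalled RNA polymerase with the CSA and CSB proteins on a transcribed strand. TFIIH then opens the helix, XPA and others verify the damage, and the nucleases XPG and ERCC1-XPF cut on either side. Base excision repair handles small lesions such as uracil, oxidised and alkylated bases: a glycosylase removes the base, an endonuclease nicks the abasic site, and a polymerase and a ligase restore the strand. Nucleotide excision repair and the long-patch branch of base excision repair share factors of gap filling and ligation with DNA replication.

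Total counts lay between 15797076 and 20936536 per library, 16159 genes passed the filter on low counts, and all 43 repair genes were among them. Levels are given as CPM, counts scaled to a common library size after TMM normalisation, and a gene was called when its adjusted p in edgeR's quasi-likelihood test was under 0.05. The 3 libraries of a group carry a single library code in their titles, and the labels name no separate cultures. The p-values thus reflect differences among these 9 libraries alone, and that spread may be technical. The labelled cell type was not borne out by its markers: all 10 colorectal epithelial genes examined had a median under 1 CPM and 6 of them, CDX1, CDX2, KRT20, CDH1, CEACAM5 and PHGR1, had no count in any library. The colorectal genes summed to 1.53 to 8.59 CPM in untreated, 0.365 to 0.705 in oxaliplatin and 0.568 to 1.25 in sorafenib libraries, with VIL1 at 6.91 and 7.27 CPM in untreated libraries 2 and 3 and under 1 CPM in the others. Renal epithelial genes summed to 398 to 536 CPM in untreated, 663 to 674 in oxaliplatin and 602 to 659 in sorafenib libraries. Genes of fibroblasts and endothelium summed to 11.4 to 48.9, 16.6 to 24.7 and 4.13 to 4.94 CPM in the same order, with only COL1A1 and PDGFRB at a median above 1 CPM. Of 8 immune genes only CD68 exceeded a median of 1 CPM, and the sums ranged from 17.8 to 57.8 CPM without order between the groups. The part of these differences in the results was not tested. Untreated library 1 correlated with sorafenib library 1 at 0.975 across genes, which are not independent replicates, as closely as libraries of a group did with each other (0.970 to 0.979).

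In oxaliplatin cells 4 of the 24 nucleotide excision repair genes rose and none fell, whereas none of the 19 base excision repair genes rose and 5 fell. The risers were ERCC4, ERCC6, GTF2H1 and UVSSA, and the genes that fell were UNG, APEX2, POLB, PARP2 and APTX. These counts stand against a wide background, since 31.7% of all genes tested were called in the same comparison, 16.2% higher and 15.5% lower. The median log2 fold change was -0.17 over the nucleotide excision repair genes and -0.30 over the base excision repair genes, beside 0.02 over all genes tested. With an offset for GC content and exon length the nucleotide excision repair genes gave 2 calls higher and 4 lower. Of all genes, 13.5% were called higher with that offset and 16.1% lower. Among the 4 risers only ERCC4 kept its call. DESeq2 called 4 and 6 of the members of the 2 pathways, where it called 29.3% of all genes. With each library left out in turn, calls over all genes ranged from 2913 to 5403, beside 5123 in the main result. The count for nucleotide excision repair was 2 without untreated library 2 or 3 or without oxaliplatin library 1. That for base excision repair was 2 without untreated library 2 or oxaliplatin library 1, 1 without untreated library 3 or oxaliplatin library 2, and 3 without sorafenib library 2 or 3. In sorafenib cells none of the 43 genes was called, where 4.80% of all genes were (2.82% higher, 1.97% lower). Oxaliplatin and sorafenib cells differed in GTF2H3 and LIG3, both lower in oxaliplatin, in a comparison that called 10.3% of all genes, 5.20% higher and 5.07% lower. In bulk RNA, fewer cells of a type and less RNA per cell cannot be told apart.

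**Figure D1:**
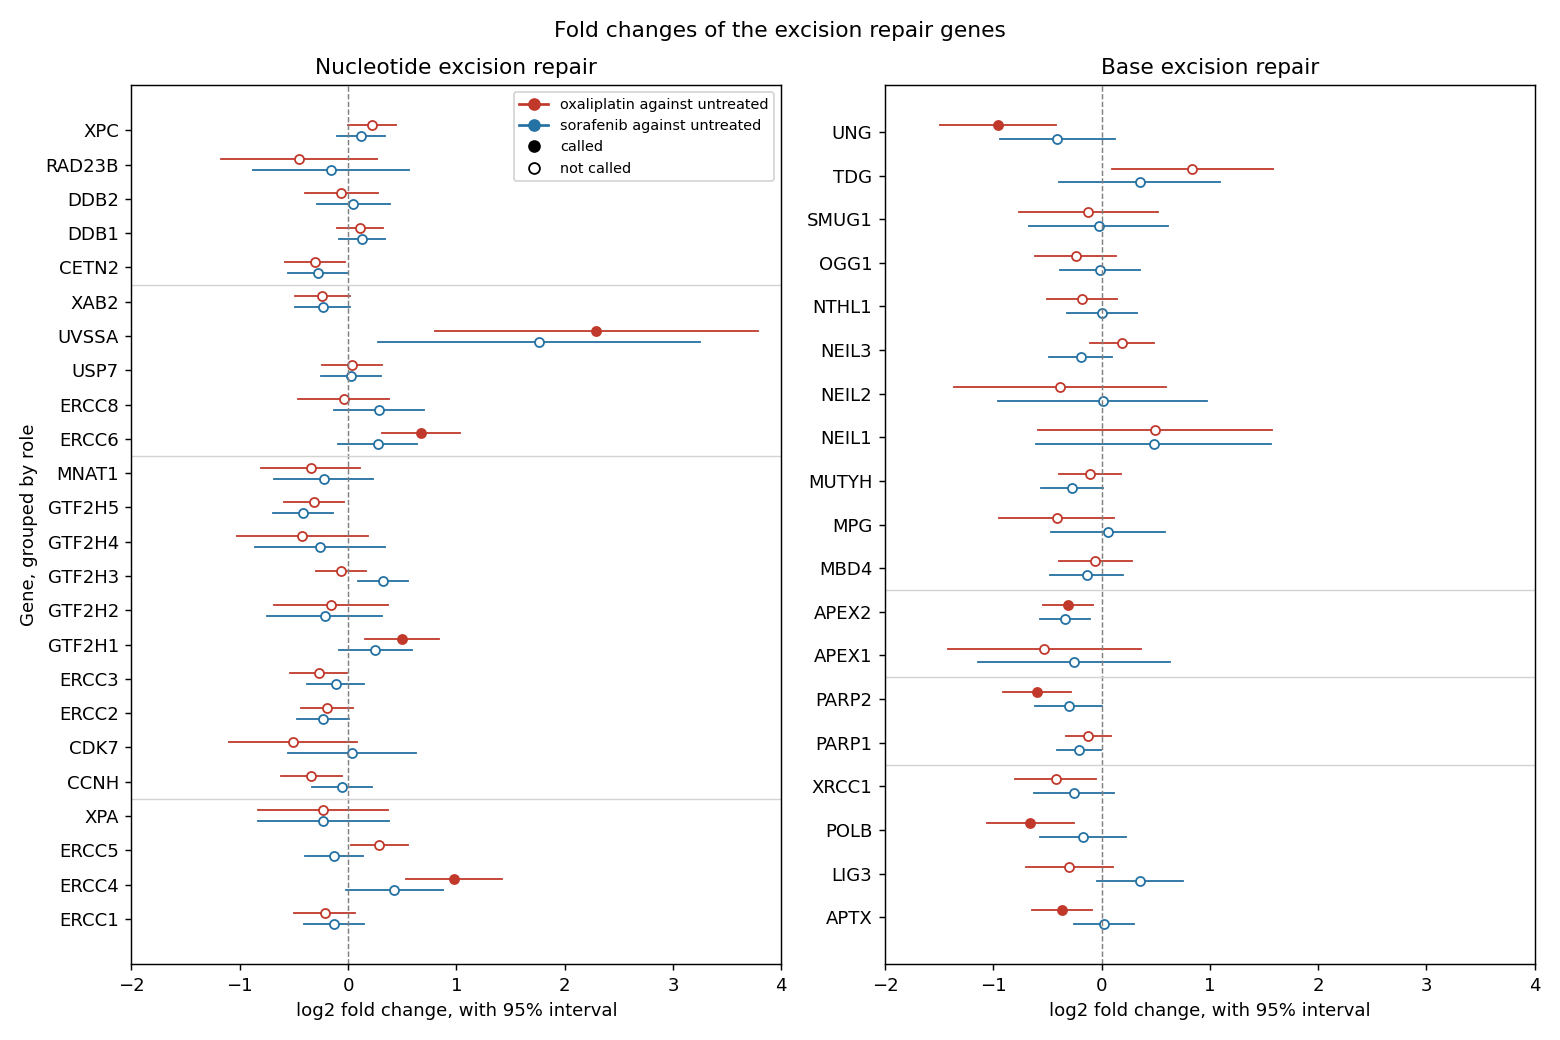
Log2 fold changes of the 24 nucleotide excision repair genes (left) and 19 base excision repair genes (right) against untreated cells, with 95% intervals, oxaliplatin in red and sorafenib in blue; filled points were called, and grey lines separate the roles. The 4 called nucleotide excision repair genes lie to the right of 0 and the 5 called base excision repair genes to the left, all in red.

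Promoter sequence was looked at for the members that moved, using RefSeq starts on GRCh38.p14, where 40 of the 43 genes matched with 55 starts (NEIL2, SMUG1 and POLB had no entry). The 250 bases before each start were searched on both strands for E2F letters (TTTGGCGC, TTTCCCGC, TTTCGCGC or TTTGCCGC), read by a family of cell cycle transcription factors, for CCAAT, read by NF-Y, and for the GC box GGGCGG, read by SP1. E2F letters stood in 2.79% of all 35116 promoters and in 2 of the 55 member windows, those of UNG and XPC. CCAAT stood in 32.0% of all promoters, in 13 of 22 base excision repair windows and in 10 of 33 nucleotide excision repair windows. The GC box stood in 42.6% of all promoters, in 18 of 22 and in 19 of 33. All promoters were not limited to genes that passed the filter on low counts, as all 43 members did. Some members gave several windows, and those of MUTYH, CDK7 and NEIL1 partly overlap. The differences between these shares were not tested. Windows of the 3 genes with the largest fold changes among those called follow, with CCAAT on either strand and E2F letters in capitals. The UNG stretch belongs to the downstream one of its RefSeq starts and ends 54 bases before it, where an annotated untranslated region begins.
ERCC4, chr16:13919904-13920153, plus strand: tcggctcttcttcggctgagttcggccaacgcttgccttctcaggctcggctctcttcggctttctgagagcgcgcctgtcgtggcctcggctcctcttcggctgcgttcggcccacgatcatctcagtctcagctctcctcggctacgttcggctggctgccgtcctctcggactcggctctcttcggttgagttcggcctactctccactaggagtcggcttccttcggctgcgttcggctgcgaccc
UVSSA, chr4:1346958-1347207, plus strand: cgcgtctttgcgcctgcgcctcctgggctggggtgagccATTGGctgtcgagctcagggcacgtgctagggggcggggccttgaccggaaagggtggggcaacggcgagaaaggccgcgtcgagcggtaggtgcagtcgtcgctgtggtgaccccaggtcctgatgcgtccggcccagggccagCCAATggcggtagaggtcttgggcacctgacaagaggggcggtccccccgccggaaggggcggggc
UNG, chr12:109097922-109098117, plus strand: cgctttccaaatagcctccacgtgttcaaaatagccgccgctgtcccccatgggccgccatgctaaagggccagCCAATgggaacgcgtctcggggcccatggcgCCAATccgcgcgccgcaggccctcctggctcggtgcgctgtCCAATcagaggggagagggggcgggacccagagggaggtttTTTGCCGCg
The ERCC4 window held none of the 3 motifs, which says only that these letters are absent from it. The UVSSA window held 2 CCAAT matches and 3 GC boxes, and the UNG stretch held 3 CCAAT matches, 1 GC box and E2F letters that begin 63 bases before the RefSeq start. No match in these 3 stretches overlapped a match of another motif, and a match describes the sequence, not a bound site.

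Levels before treatment spanned a wide range when expressed per kilobase of exon. The length is that of all annotated exons of a gene joined, which can exceed that of the transcript expressed. The order between genes is therefore approximate. In untreated cells RAD23B, the partner that stabilises XPC, stood first at 80.1 ± 25.2 CPM per kilobase (SD, n = 3), ahead of the nick sensor PARP1 at 41.0 ± 2.26, the endonuclease APEX1 at 39.9 ± 7.32 and the uracil glycosylase UNG at 38.0 ± 13.8. At the other end were ERCC4 at 0.955 ± 0.193, the TFIIH gene GTF2H2 at 0.572 ± 0.00987, ERCC6 at 0.410 ± 0.0605, UVSSA at 0.185 ± 0.0670 and the glycosylase NEIL1 at 0.116 ± 0.0344. Of the 4 nucleotide excision repair genes that rose in oxaliplatin cells, 3 were among the 5 lowest of the 43 in untreated cells. Rank and fold change both use the untreated libraries, and the rank divides by exon length, so this is not an independent result. Of the 42 pairs of neighbours in this order, 33 overlapped in their library values, so that their order is not resolved. GTF2H2 has near-identical copies that share reads with it, and its level is uncertain.

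**Figure D2:**
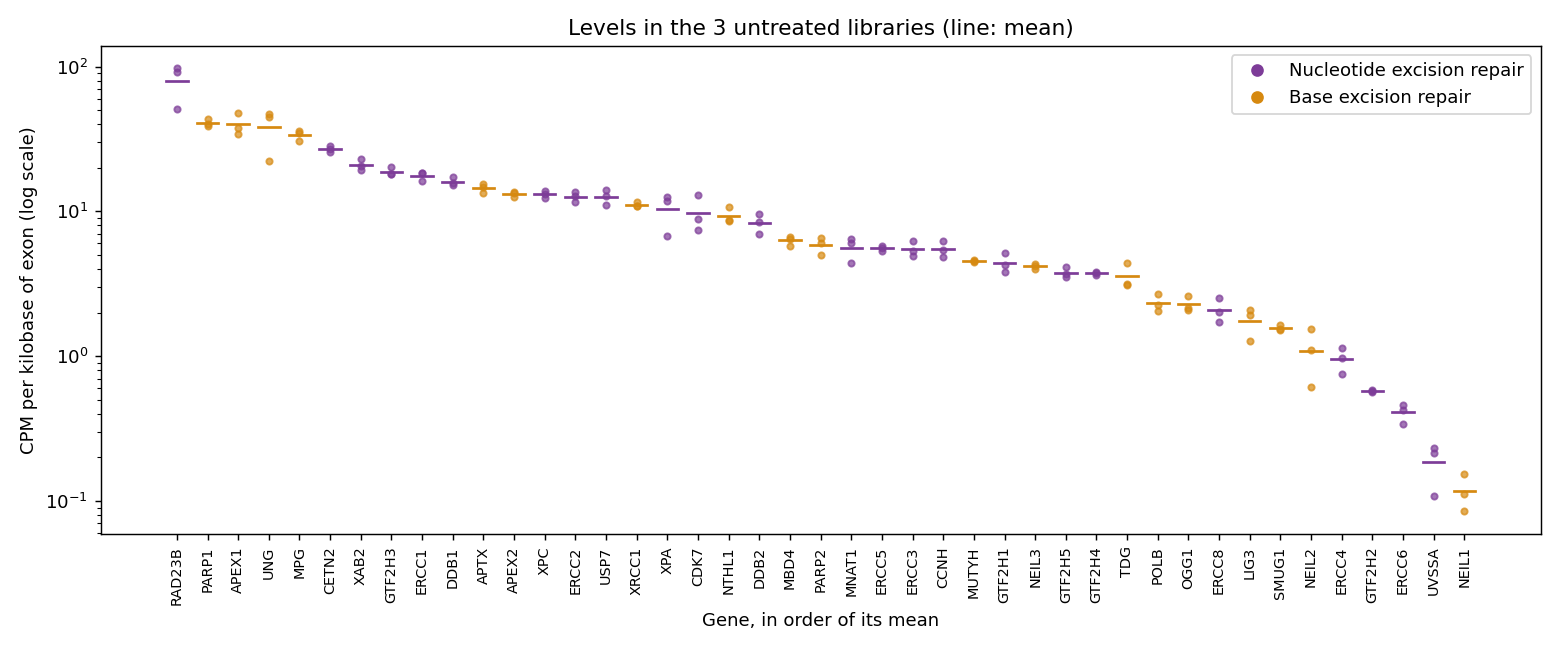
Level of each repair gene in the 3 untreated libraries in CPM per kilobase of exon, on a log axis, in order of the mean (line), with nucleotide excision repair in purple and base excision repair in orange. RAD23B leads at a mean of 80.1 and NEIL1 closes the order at 0.116.

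Among the 5 genes of global damage recognition none was called in oxaliplatin cells, where 31.7% of all genes were. XPC, which senses the distorted helix, had 66.3, 63.5 and 58.9 CPM in the untreated libraries, 77.9, 67.4 and 74.2 in oxaliplatin and 68.0, 67.6 and 69.5 in sorafenib. Every drug-treated library lay above every untreated one, yet the differences of 0.22 ± 0.10 (log2 ± SE, adjusted p = 0.118) and 0.12 ± 0.10 (adjusted p = 0.483) were not called. DDB2, a target of p53 that binds ultraviolet photoproducts, had 41.4, 46.9 and 34.4 CPM untreated, 41.2, 39.8 and 36.5 in oxaliplatin, and 46.3, 45.8 and 34.8 in sorafenib. Its groups overlapped, with log2 differences of -0.06 ± 0.15 and 0.05 ± 0.15 whose 95% intervals ran from -0.40 to 0.28 and from -0.29 to 0.39. DDB1, its partner in the ubiquitin ligase, lay between 211 and 264 CPM in all 9 libraries, and CETN2, the centrin bound to XPC, between 35.9 and 54.8. RAD23B was uneven: 422, 451 and 236 CPM untreated against 221, 193 and 395 in oxaliplatin, with the third library of each group on the other side of its companions.

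Of the 5 genes that act where RNA polymerase stalls, 2 rose in oxaliplatin cells, where 16.2% of all genes were called higher. ERCC6 (chr10:49454470-49539538, minus strand, GRCh38), the gene of CSB, the ATPase that recognises the stalled polymerase, had 7.16, 7.68 and 5.73 CPM untreated and 10.6, 10.1 and 12.1 in oxaliplatin, with 8.48, 7.78 and 8.57 in sorafenib. All oxaliplatin values exceeded all others, at 1.59 times the untreated level (log2 0.67 ± 0.16, adjusted p = 0.0127). The sorafenib values also lay above the untreated ones without a call (0.27 ± 0.16, adjusted p = 0.324). Over 19 alternatives the adjusted p for oxaliplatin ran from 0.00299 to 0.681. Without untreated library 3 it was 0.0516. With an offset for GC content and exon length the difference was 0.16, with an adjusted p of 0.620.

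UVSSA (chr4:1347208-1395989, plus strand), whose protein stabilises CSB at the stalled polymerase, showed the largest fold change of the 43 genes and also the largest standard error. Its untreated values were 3.40, 1.71 and 3.66 CPM, those in oxaliplatin 27.3, 9.22 and 6.32, and those in sorafenib 16.2, 5.39 and 8.25. Each drug-treated library lay above each untreated one, and library 1 stood far above its companions in either drug group. Oxaliplatin cells held 4.89 times the untreated level (log2 2.29 ± 0.65, adjusted p = 0.0300) and sorafenib cells 3.40 times (1.76 ± 0.65, adjusted p = 0.138). The call for UVSSA ended without oxaliplatin library 1 (log2 1.41, adjusted p = 0.0760) and without untreated library 1, 2 or 3 (0.0633, 0.107 and 0.0698). Its adjusted p ran from 0.00034 to 0.107 over all alternatives, was 0.0952 with the GC and length offset (log2 1.76) and 0.0168 for sorafenib in DESeq2. The other three genes of this step were not called: ERCC8, the gene of CSA, ranged from 9.39 to 16.2 CPM, the deubiquitinase USP7 from 87.9 to 113, and the splicing-linked XAB2 from 74.8 to 108.

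TFIIH, the complex that opens the helix and also starts transcription, had 10 genes measured, of which GTF2H1 rose in oxaliplatin cells. Of all genes tested, 16.2% were called higher in that comparison. GTF2H1 (chr11:18322295-18367045, plus strand), the p62 core subunit, had 29.8, 26.5 and 35.8 CPM untreated, 48.5, 45.3 and 36.2 in oxaliplatin, and 39.5, 33.4 and 36.7 in sorafenib. The gap between the highest untreated and the lowest oxaliplatin value was narrow, and the difference was 0.50 ± 0.15 (adjusted p = 0.0328, 0.0143 to 0.330 over the alternatives). The call for GTF2H1 was lost without untreated library 1 or 2 (adjusted p = 0.0709 and 0.121), without oxaliplatin library 1 or 2 (0.121 and 0.0949) and with the GC and length offset (0.316). The remaining 9 subunits all had log2 differences below 0 and no call, from -0.51 for the kinase CDK7 to -0.07 for GTF2H3. ERCC2, the XPD helicase that unwinds the damaged stretch, had 74.4, 88.5 and 82.2 CPM untreated, 72.5, 67.5 and 74.8 in oxaliplatin, and 74.8, 68.8 and 64.7 in sorafenib. Its groups overlapped against oxaliplatin and sorafenib alike (log2 -0.19 ± 0.11 and -0.23 ± 0.11, adjusted p = 0.199 and 0.206). ERCC3 (log2 -0.27), CCNH (-0.34) and GTF2H5 (-0.32) had all oxaliplatin values below all untreated ones, at adjusted p of 0.104, 0.0638 and 0.0762.

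GTF2H3 (chr12:123633739-123662604, plus strand), the p34 subunit, was lower in oxaliplatin than in sorafenib cells. Its untreated values were 72.2, 71.9 and 81.0 CPM, its oxaliplatin values 71.6, 77.0 and 66.6 and its sorafenib values 92.6, 101 and 88.3. The 3 sorafenib libraries were the highest of the 9, and the oxaliplatin libraries overlapped the untreated ones. Between the drugs the log2 difference was -0.39 ± 0.11 (adjusted p = 0.0445), while sorafenib against untreated gave 0.32 ± 0.11 (adjusted p = 0.0974). The call for GTF2H3 ended in 13 of 19 alternatives, at an adjusted p between 0.0112 and 0.137 over all of them. It ended without untreated library 2 or 3 (0.0603 and 0.0587), without oxaliplatin library 1, 2 or 3 (0.137, 0.0774 and 0.0890) and without sorafenib library 1, 2 or 3 (0.0875, 0.129 and 0.0784). Its exons overlap a further gene on the same strand by 54 bases.

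Damage verification and incision gave the firmest of the calls in nucleotide excision repair. ERCC4 (chr16:13920154-13952348, plus strand), the gene of the nuclease XPF, which cuts on the 5′ side of a lesion and also takes part in the repair of crosslinks between strands, had 8.27, 6.36 and 9.60 CPM untreated, 17.7, 16.1 and 14.0 in oxaliplatin, and 8.64, 11.5 and 12.4 in sorafenib. The oxaliplatin libraries were the 3 highest of the 9, and sorafenib overlapped untreated. Oxaliplatin cells held 1.97 times the untreated level (log2 0.98 ± 0.20, 95% interval 0.53 to 1.42, adjusted p = 0.00689). That call held when each library was left out in turn, with DESeq2 and with the GC and length offset (0.62, adjusted p = 0.0156), with adjusted p between 0.000252 and 0.0314, and ended only where a 2-fold change was required as well. Sorafenib cells differed from untreated by 0.43 ± 0.20 (adjusted p = 0.215). ERCC4 in oxaliplatin was above sorafenib by 0.55 ± 0.20 without a call (adjusted p = 0.104). ERCC4 exons overlap an antisense gene by 2174 bases, and the strand setting of the counting is not given in the sources used here, so reads of that gene could be counted with it.

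ERCC1, the partner without which XPF is unstable, had 102, 103 and 90.9 CPM untreated, 80.1, 77.9 and 96.7 in oxaliplatin and 102, 87.1 and 81.5 in sorafenib. It was not called, and its groups overlapped (log2 -0.22 ± 0.13, adjusted p = 0.210). Per kilobase the ratio of ERCC1 to ERCC4 was 14.4 to 24.6 in untreated libraries, 6.87 to 10.5 in oxaliplatin and 9.94 to 17.9 in sorafenib, as a description of these libraries. Reads of CD3EAP, which overlaps ERCC1 on the other strand by 1593 bases, could be part of the ERCC1 count. ERCC5, the gene of XPG, which cuts on the 3′ side, had 46.2, 43.6 and 47.4 CPM untreated, 48.6, 63.6 and 55.4 in oxaliplatin and 40.4, 41.0 and 43.8 in sorafenib. All oxaliplatin values were above all others, without a call against untreated (0.29 ± 0.12, adjusted p = 0.0884) or sorafenib (0.42 ± 0.12, adjusted p = 0.0513). Most of its exon sequence is shared with the readthrough gene BIVM-ERCC5, so that its count is uncertain. XPA, the scaffold that checks the lesion, had 12.4, 21.6 and 22.9 CPM untreated, 16.9, 18.7 and 12.9 in oxaliplatin, and 19.0, 18.3 and 11.3 in sorafenib, and these groups overlapped.

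**Figure D3:**
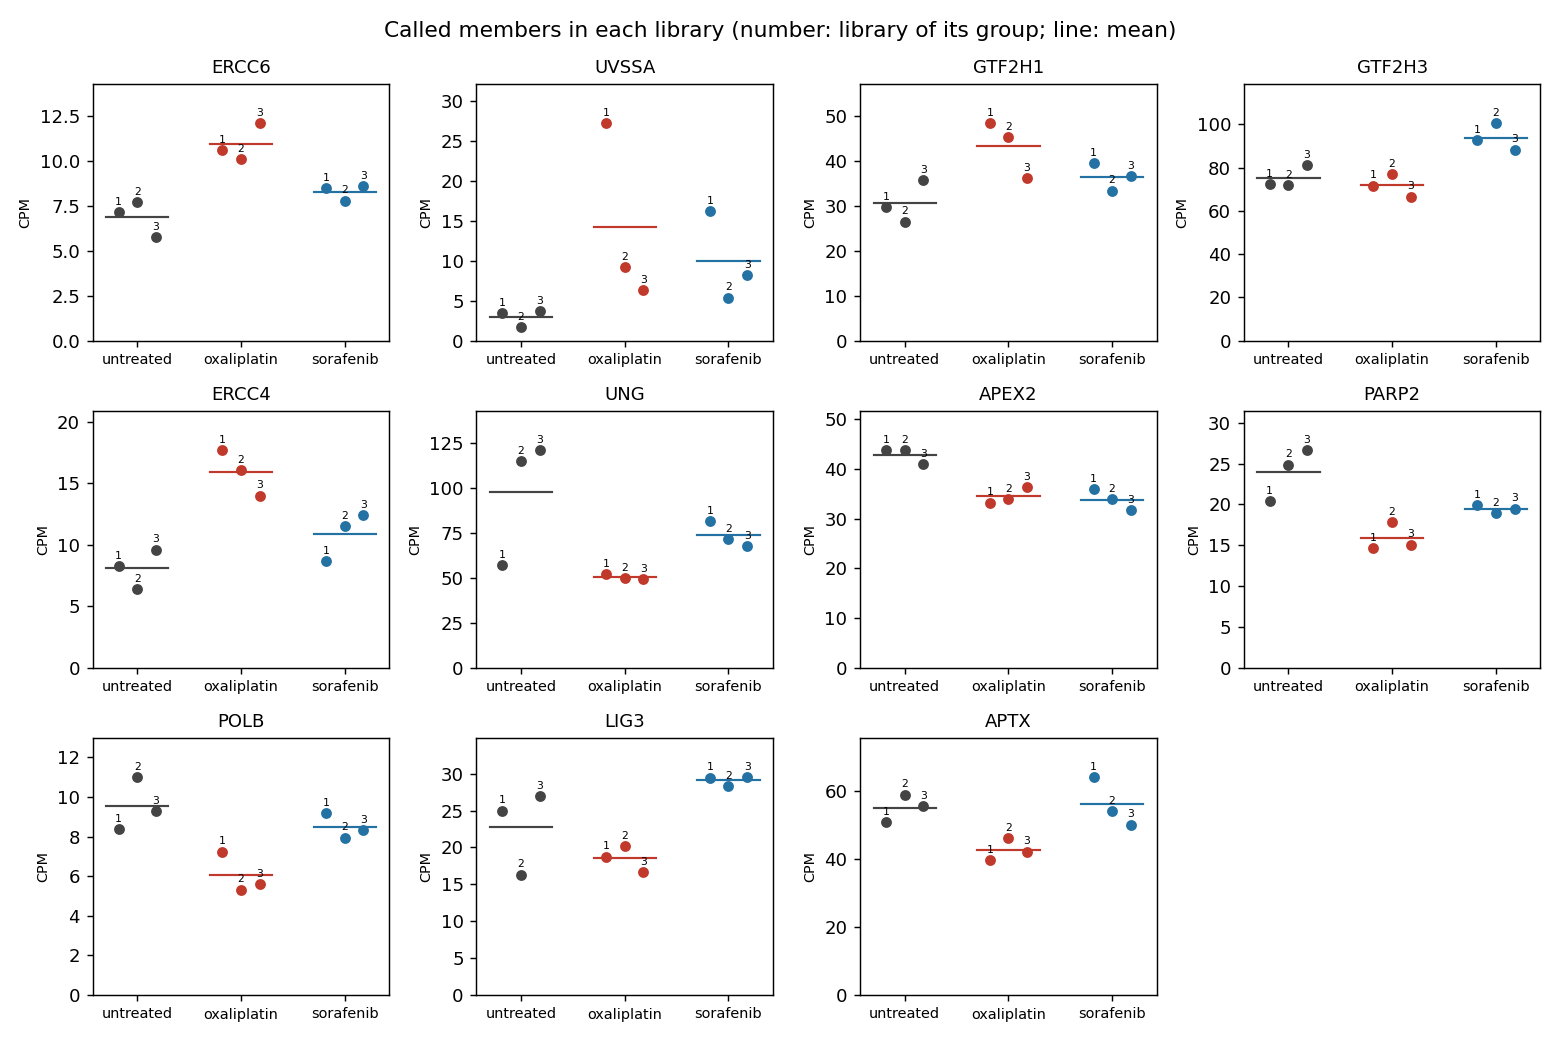
CPM of the 11 called repair genes in each library, from untreated (grey) through oxaliplatin (red) to sorafenib (blue), with the library number at each point and the group mean as a line; every axis starts at 0. ERCC4 stands between 14.0 and 17.7 in oxaliplatin against 6.36 to 9.60 untreated, and the UVSSA value of 27.3 in oxaliplatin library 1 lies far above its companions.

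Base excision repair begins with 11 glycosylases, and UNG was the only one called, lower in oxaliplatin, where 15.5% of all genes were. UNG (chr12:109097597-109110992, plus strand), which removes uracil from DNA, had 57.0, 115 and 121 CPM untreated, 51.8, 49.8 and 49.4 in oxaliplatin, and 81.5, 71.5 and 67.7 in sorafenib. Oxaliplatin values were tight and below all others, whereas untreated library 1 sat near them and far from untreated libraries 2 and 3. The oxaliplatin level was 0.516 of the untreated one (log2 -0.96 ± 0.24, adjusted p = 0.0159). Sorafenib lay in between, at -0.41 ± 0.24 (adjusted p = 0.312). Over the alternatives the adjusted p for UNG in oxaliplatin ran from 0.000622 to 0.0776, and the call ended without untreated library 2 or 3 (0.0583 and 0.0545) and without oxaliplatin library 2 (0.0532). Without untreated library 1, UNG was also called lower in sorafenib (log2 -0.68, adjusted p = 0.0105).

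No other glycosylase passed the test in any comparison. OGG1, which removes oxidised guanine, had 22.7, 18.9 and 18.3 CPM untreated, 16.1, 14.1 and 20.5 in oxaliplatin and 18.7, 22.1 and 18.5 in sorafenib, with overlap between the groups. NEIL1, for oxidised pyrimidines, was near the floor of detection at 0.587, 0.774 and 1.06 CPM untreated, 1.70, 0.380 and 1.34 in oxaliplatin, and 1.30, 1.14 and 0.965 in sorafenib, where 3 counts equal 0.138 to 0.182 CPM. At that depth only large changes could have been called, with an interval for oxaliplatin from -0.59 to 1.58. NEIL3, a glycosylase that also opens crosslinks at replication forks, had 11.9, 12.9 and 12.4 CPM untreated, 13.0, 15.3 and 14.0 in oxaliplatin and 10.3, 11.6 and 10.5 in sorafenib. Its oxaliplatin values were all above and its sorafenib values all below the untreated ones, with no call between the drugs (0.38 ± 0.13, adjusted p = 0.0916). TDG, which removes thymine from mismatches, had 21.7, 15.4 and 15.2 CPM untreated and 21.9, 24.0 and 47.7 in oxaliplatin. Oxaliplatin library 3 stood far above the others, and TDG was not called in edgeR (0.84 ± 0.33, adjusted p = 0.0803), though it was in DESeq2 (adjusted p = 0.0394). Between the untreated and oxaliplatin cells the log2 differences of the other six glycosylases, MUTYH, NTHL1, NEIL2, SMUG1, MBD4 and MPG, ran from -0.41 for MPG to -0.06 for MBD4.

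The abasic site is nicked by APEX1, the main endonuclease, and to a lesser part by APEX2. APEX1 had 70.6, 64.2 and 90.6 CPM untreated, 22.2, 54.5 and 79.9 in oxaliplatin, and 66.9, 67.8 and 54.4 in sorafenib. The oxaliplatin libraries differed among themselves by 3.60 times, and with that spread a difference of -0.53 ± 0.39 (95% interval -1.41 to 0.36, adjusted p = 0.329) was not called. APEX2 (chrX:55000363-55009057, plus strand) had 43.8, 43.8 and 41.1 CPM untreated, 33.2, 34.0 and 36.4 in oxaliplatin and 36.0, 33.9 and 31.7 in sorafenib. Both drug groups lay below all untreated libraries by nearly the same amount, -0.31 ± 0.10 in oxaliplatin (adjusted p = 0.0427) and -0.34 ± 0.10 in sorafenib (adjusted p = 0.0798). Only the first was called, and the difference between the drugs was 0.03 ± 0.10 (adjusted p = 0.886). The APEX2 call for oxaliplatin ended in 14 of 19 alternatives, at an adjusted p from 0.0199 to 0.376, and the offset for GC and length brought the difference to -0.12. It ended without untreated library 1, 2 or 3 (0.0732, 0.121 and 0.0716), oxaliplatin library 1 or 2 (0.138 and 0.112), and sorafenib library 2 or 3 (0.0628 and 0.0567).

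Of the nick sensors, PARP2 fell in oxaliplatin cells and PARP1 did not pass the test. PARP2 (chr14:20343582-20357905, plus strand), which marks nicks with poly(ADP-ribose), had 20.4, 24.9 and 26.7 CPM untreated, 14.7, 17.8 and 15.1 in oxaliplatin, and 19.9, 18.9 and 19.5 in sorafenib. The 3 groups did not overlap, with oxaliplatin lowest at 0.661 of the untreated level (log2 -0.60 ± 0.14, adjusted p = 0.0116) and sorafenib in between (-0.30 ± 0.14, adjusted p = 0.206). PARP2 ended only with a 2-fold requirement and without oxaliplatin library 1 (adjusted p = 0.0515), within a range from 0.00206 to 0.0515, and kept its value under the GC and length offset (-0.60, adjusted p = 0.00779). PARP1, the main nick sensor, had 311, 279 and 290 CPM untreated, 257, 265 and 287 in oxaliplatin, and 249, 256 and 257 in sorafenib. Sorafenib values lay below all untreated ones, and the differences of -0.12 ± 0.09 and -0.21 ± 0.09 had adjusted p of 0.335 and 0.189.

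The 4 genes of gap filling, ligation and end cleaning all had log2 differences below 0 in oxaliplatin cells, and 2 of them passed the test. Of all genes tested, 15.5% were called lower in that comparison. POLB, the polymerase of short patches, had 8.39, 11.0 and 9.28 CPM untreated, 7.24, 5.32 and 5.59 in oxaliplatin and 9.18, 7.95 and 8.31 in sorafenib. Its oxaliplatin values were below all others, at 0.634 of untreated (log2 -0.66 ± 0.18, adjusted p = 0.0211, 0.00888 to 0.0843 over the alternatives). The POLB call ended without untreated library 2 or 3 (0.0843 and 0.0501) and without oxaliplatin library 2 or 3 (0.0789 and 0.0545), and stayed with the GC and length offset (-0.71, adjusted p = 0.0171). APTX, which clears adenylate from failed ligations, had 50.7, 58.8 and 55.4 CPM untreated, 39.6, 46.1 and 42.1 in oxaliplatin, and 64.0, 54.0 and 50.0 in sorafenib. Oxaliplatin was lowest without overlap (log2 -0.37 ± 0.12, adjusted p = 0.0464), but this call was lost in 14 of 19 alternatives, at an adjusted p from 0.0284 to 0.152. Among them were the omission of untreated library 2 or 3 (0.143 and 0.105), of oxaliplatin library 1, 2 or 3 (0.152, 0.0656 and 0.0933) and of sorafenib library 2 or 3 (0.0640 and 0.0526), and the offset (-0.31, adjusted p = 0.0663). APTX exons overlap 2 pseudogenes on the same strand.

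XRCC1, the scaffold that holds polymerase and ligase, had 40.0, 37.8 and 37.8 CPM untreated, 25.8, 26.1 and 34.2 in oxaliplatin, and 40.1, 29.4 and 27.4 in sorafenib. Oxaliplatin values lay below the untreated ones without a call (log2 -0.42 ± 0.17, adjusted p = 0.0775). XRCC1 was called lower without oxaliplatin library 3 (adjusted p = 0.0375) and without sorafenib library 1 (0.0363). LIG3, the ligase bound to XRCC1, had 25.0, 16.3 and 27.0 CPM untreated, 18.7, 20.2 and 16.6 in oxaliplatin, and 29.5, 28.3 and 29.5 in sorafenib. The sorafenib libraries were the highest and the tightest, and neither drug was called against untreated (-0.30 ± 0.18 and 0.35 ± 0.18, adjusted p = 0.227 and 0.246). Without untreated library 2, LIG3 was called lower in oxaliplatin than in untreated cells (-0.49, adjusted p = 0.0384). Between the drugs LIG3 was 0.637 of its sorafenib level in oxaliplatin (log2 -0.65 ± 0.18, adjusted p = 0.0474, 0.0123 to 0.130 over the alternatives). That call ended without untreated library 1 (0.0523), without oxaliplatin library 1, 2 or 3 (0.130, 0.0930 and 0.103) and without sorafenib library 1, 2 or 3 (0.115, 0.0897 and 0.112). LIG3 shares 3754 bases of exon with RFFL on the other strand, whose reads could be part of the count. Antisense exon overlaps of over 100 bases were present for 16 of the 43 members. The same limit thus holds for other genes, such as XPC, OGG1 and NEIL1.

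In sorafenib cells the 43 genes gave 0 calls in edgeR. At an unadjusted p under 0.05 there were 3 nucleotide and 2 base excision repair genes, where 25.4% of all genes were. DESeq2 called 2 and 1, namely UVSSA higher and GTF2H5 and APEX2 lower, where it called 12.4% of all genes. The smallest adjusted p in edgeR were 0.0777 for GTF2H5, a small TFIIH subunit (26.6, 31.2 and 27.9 CPM untreated against 24.0, 19.8 and 20.4 in sorafenib), and 0.0798 for APEX2. The median log2 difference was -0.08 for nucleotide and -0.14 for base excision repair, beside 0.00 over all genes tested. Both drugs were compared with the same 3 untreated libraries, so their values are not independent. No repair gene was called in both drugs, where 2.78% of all genes were called in the same direction by both.

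The groups did not overlap for 11 of 24 nucleotide and 8 of 19 base excision repair genes in oxaliplatin against untreated, where 48.1% of all genes tested did not overlap (24.9% higher, 23.2% lower). Of the first 11, 6 were higher and 5 lower, and of the second 8, 2 were higher and 6 lower. In sorafenib against untreated the groups were apart for 6 of 24 and 6 of 19 genes, against 29.8% of all genes (15.5% higher, 14.3% lower). Between the drugs they were apart for 6 of each pathway, against 34.9% of all genes (17.3% higher, 17.6% lower). Counted in either direction, these shares lie near the background. By direction, nucleotide excision repair had 4 higher and 2 lower in sorafenib against untreated, and 3 and 3 in oxaliplatin against sorafenib. Base excision repair had 1 higher and 5 lower in each of these comparisons. Its groups thus stood apart more often lower than higher in all 3 comparisons, which was not tested. The 3 comparisons use the same libraries and are not independent. Summed over the pathway, base excision repair stood at 816, 837 and 869 CPM in untreated libraries, 623, 678 and 777 in oxaliplatin and 793, 755 and 708 in sorafenib, and both drugs' sums lay below the untreated ones. A sum is weighted towards the most abundant members, and PARP1 alone had 279 to 311 CPM in the untreated libraries. How often sums over other genes lie apart was not tested. The sums for nucleotide excision repair, 1520, 1593 and 1373 untreated against 1347, 1295 and 1501 in oxaliplatin, overlapped. Those in sorafenib, 1526, 1390 and 1457, overlapped the untreated ones as well.

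Exon length went with the direction of the calls. The 4 genes that rose in oxaliplatin cells had 6939 to 16737 bases of exon and the 5 that fell had 2567 to 4106. The same held over all genes tested, where the median was 6909 bases for those called higher and 3130 for those called lower, with a median GC content of 44.3% and 51.4%. With an offset per library for GC content and length, ERCC4, UNG, PARP2 and POLB kept their calls, and ERCC6, GTF2H1, UVSSA, APEX2 and APTX lost them. The log2 difference was 1.76 with the offset and 2.29 without it for UVSSA, and -0.31 and -0.37 for APTX. It was 0.16 and 0.67 for ERCC6, 0.20 and 0.50 for GTF2H1, and -0.12 and -0.31 for APEX2. The offset also added calls in oxaliplatin: XPC became called higher (0.29), and ERCC3 (-0.56), GTF2H5 (-0.65), CCNH (-0.60), OGG1 (-0.47), LIG3 (-0.77), PARP1 (-0.27) and DDB1 (-0.35) lower, the last from 0.11 without it. Among nucleotide excision repair genes the 2 called higher with the offset were thus ERCC4 and XPC, and the 4 called lower were ERCC3, GTF2H5, CCNH and DDB1, where 13.5% and 16.1% of all genes were called. The part of length and GC content in the unadjusted differences was not tested further.

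**Figure D4:**
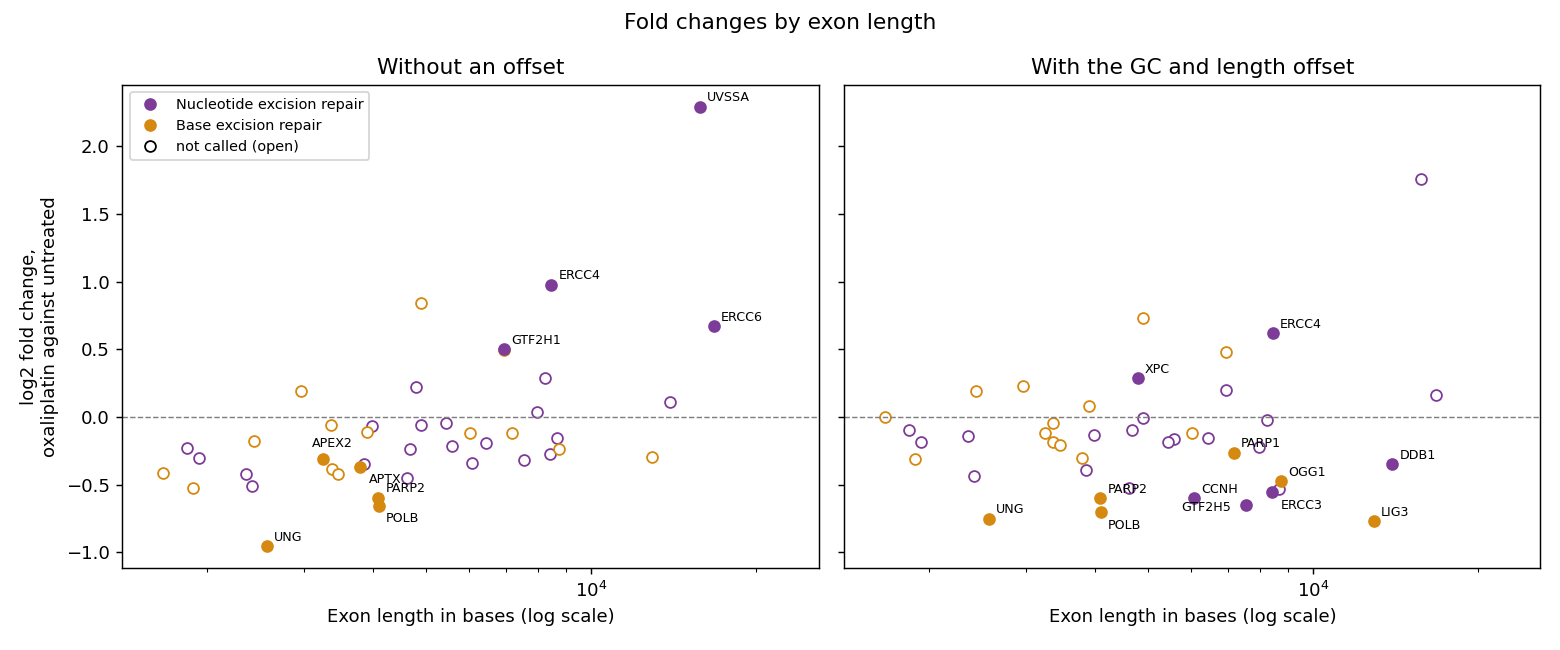
Log2 fold change of the 43 repair genes in oxaliplatin against untreated cells by exon length (log axis), without (left) and with (right) an offset for GC content and length; filled points were called, nucleotide excision repair in purple and base excision repair in orange. ERCC4, UNG, PARP2 and POLB are filled in both panels, and ERCC6, the longest gene at 16737 bases, drops from 0.67 to 0.16.

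Genes of replication that also serve gap filling and ligation in nucleotide excision repair or long-patch base excision repair were looked at beside the members. They came from a list of 19 with replication polymerases, clamp, clamp loaders, RPA, FEN1 and LIG1. In oxaliplatin cells 14 of the 19 fell and none rose, where 15.5% of all genes were called lower and 16.2% higher, with a median log2 difference of -0.59, and in sorafenib cells 3 fell, where 1.97% of all genes were called lower, with a median of -0.30. PCNA, the sliding clamp, had 276, 291 and 333 CPM untreated, 148, 156 and 164 in oxaliplatin and 205, 183 and 190 in sorafenib. It fell in both drugs (log2 -0.94 ± 0.10 and -0.64 ± 0.10, adjusted p = 0.00106 and 0.0131), with sorafenib between the other groups without overlap. FEN1, the flap nuclease of long patches, fell by 1.17 ± 0.14 and by 0.75 ± 0.13 (adjusted p = 0.00118 and 0.0192). LIG1, the ligase of long patches and replication, fell by 0.76 ± 0.14 and by 0.60 ± 0.14 (adjusted p = 0.00414 and 0.0382). POLE3, a histone-fold subunit of polymerase epsilon, fell in oxaliplatin (-0.70 ± 0.12, adjusted p = 0.00326) and was not called in sorafenib (-0.34 ± 0.11, adjusted p = 0.107). The oxaliplatin calls for PCNA, FEN1, LIG1 and POLE3 held without any single library, at adjusted p of 0.0215 or lower. The sorafenib calls ended without untreated library 3 or sorafenib library 2 or 3 for all of PCNA (0.0562, 0.0709 and 0.0715), FEN1 (0.0756, 0.0885 and 0.0939) and LIG1 (0.114, 0.143 and 0.147). They also ended without untreated library 2 for FEN1 and LIG1 (0.0763 and 0.133), and without oxaliplatin library 1 or 2 for LIG1 (0.0661 and 0.0528). Between the drugs, POLD2 and RFC3 were lower in oxaliplatin (-0.59 and -0.54, adjusted p = 0.0339 and 0.0192). The POLD2 call ended without oxaliplatin library 1 or 2 (0.121 and 0.118) and without sorafenib library 1, 2 or 3 (0.104, 0.0564 and 0.0767), and the RFC3 call without oxaliplatin library 1 (0.0863) or sorafenib library 3 (0.0745).

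Of 9 accessory nucleotide excision repair genes, 5 fell, among them RBX1, ELOF1, TCEA1 and HMGN1, and 1 rose in oxaliplatin cells, where 15.5% of all genes were called lower and 16.2% higher. The call for TCEA1 (-1.14, adjusted p = 0.0269) was lost in 7 of 19 alternatives, among them without untreated library 1 or 2 (0.0511 and 0.0906) and without oxaliplatin library 1 or 2 (0.0846 and 0.0883). That for HMGN1 (-0.52, adjusted p = 0.0259) was lost in 8, among them without untreated library 2 or 3 (0.0925 and 0.0646) and without oxaliplatin library 1 or 2 (0.0899 and 0.0508). POLK, a translesion polymerase that also fills excision gaps, had 8.04, 4.04 and 6.31 CPM untreated, 27.8, 27.4 and 26.0 in oxaliplatin, and 13.2, 27.9 and 19.8 in sorafenib. It rose in both drugs without overlap (log2 2.14 ± 0.30 and 1.73 ± 0.30, adjusted p = 0.00188 and 0.0169). The oxaliplatin call for POLK held in all 19 alternatives (adjusted p up to 0.0111), and the sorafenib call ended without untreated library 2 or 3 (0.0523 and 0.0684) and without sorafenib library 2 or 3 (0.0574 and 0.0674). RBX1, the RING subunit of the DDB1 ubiquitin ligase, and ELOF1, an elongation factor of transcription-coupled repair, fell in oxaliplatin (-0.88 ± 0.15 and -0.97 ± 0.17, adjusted p = 0.0036 and 0.00405).

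Of 12 accessory base excision repair genes, 3 fell (HMGB1, CHD1L and ALKBH3) and 1 rose in oxaliplatin cells, again beside 15.5% and 16.2% of all genes. The call for ALKBH3, which reverses alkylation (-0.43, adjusted p = 0.0426), was lost in 14 of 19 alternatives, among them the GC and length offset (-0.20, adjusted p = 0.271). It ended without untreated library 2 or 3 (0.135 and 0.129), oxaliplatin library 1, 2 or 3 (0.137, 0.0852 and 0.0619), and sorafenib library 2 or 3 (0.0555 and 0.0567). HMGB1, a chromatin protein that acts as a cofactor, fell (-0.91 ± 0.18, adjusted p = 0.00559), and so did the remodeller CHD1L (-0.34 ± 0.10, adjusted p = 0.0264). The CHD1L call ended without untreated library 3 (0.0906) and without oxaliplatin library 1, 2 or 3 (0.0732, 0.0633 and 0.0629). APLF, an end-joining factor recruited by poly(ADP-ribose), had 0.528, 0.387 and 0.902 CPM untreated, 2.15, 1.63 and 1.95 in oxaliplatin and 0.978, 0.738 and 0.536 in sorafenib. It rose in oxaliplatin from this low level (1.64 ± 0.37, adjusted p = 0.0096, up to 0.0470 over the alternatives). Between the drugs APLF was higher and HMGB1 lower in oxaliplatin (1.34 ± 0.36 and -0.82 ± 0.18, adjusted p = 0.0424 and 0.0190). The APLF call between the drugs was lost without any of the 6 drug libraries (0.0665 to 0.145), and that of HMGB1 without oxaliplatin library 1 or 2 (0.0533 and 0.0647). No accessory base excision repair gene was called in sorafenib against untreated cells in edgeR or DESeq2, and 0 had an unadjusted p under 0.05.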

How the data were processed

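Messenger RNA libraries were sequenced from 9 samples, 3 each of untreated, oxaliplatin and sorafenib cells, grouped by the titles. The deposited files hold raw counts per gene, made by the authors with featureCounts on GRCh38, per the submitters' processing notes, which also name DESeq2. The aligner, annotation release and strand setting are not given in the sources used here. Counts were scaled by TMM and tested with edgeR 4.0.16 (R 4.3.3): filterByExpr, robust quasi-likelihood fit over all 9 libraries, 3 contrasts, and Benjamini-Hochberg adjustment over the 16159 genes tested, with a threshold of 0.05. Biological coefficient of variation was 0.224. Fits were tested on simulated data. Libraries of a group differed by more than sampling noise (chi-square per degree of freedom 16.9 to 36.3). Counts of 3 set the floor of detection, which covers counting error only. Exon lengths, GC content and gene positions came from GENCODE 29, and promoters from RefSeq. The alternatives were 19: other scaling, filters, replicate block, a GC and length offset (available for 99.0% of genes tested), the 2 groups alone, DESeq2 1.42.0, a 2-fold requirement, and each library left out. Members called in any contrast were described by library, as were, whatever their result, XPC, DDB2, ERCC6, ERCC2, XPA, ERCC1, ERCC4, ERCC5, OGG1, UNG, NEIL1, NEIL3, APEX1, POLB, XRCC1, LIG3 and PARP1. Of related lists, the 3 called genes with the smallest adjusted p were named, beside PCNA, LIG1 and FEN1, with others of short counts named after their values were seen. A further gene of these lists is not reported here. Members and lists were chosen with earlier results of these data known.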

Additional observations from a re-analysis of the deposited data

Results flagged for a closer look

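The effects of oxaliplatin and sorafenib against the shared untreated libraries differed for 2 of the 43 repair genes in the test of the difference itself. That test called 10.3% of all genes, 5.20% higher and 5.07% lower. The groups were apart between the drugs for 34.9% of all genes. For GTF2H3 the effect of oxaliplatin minus that of sorafenib was -0.39 on the log2 scale (adjusted p = 0.0445), with all 3 sorafenib libraries above all oxaliplatin libraries. For LIG3 it was -0.65 (adjusted p = 0.0474), again with all 3 sorafenib libraries above all oxaliplatin libraries. Both were lost under other settings, GTF2H3 in 13 and LIG3 in 10 of 19.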

How the results depend on the processing

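Of 2451 gene-level results of the 43 members under the alternatives, 2334 kept their side of the threshold with no reversal of a called value (106 of them were uncalled and changed sign), 83 lost a call, 32 gained a call and 2 reversed. Both reversals were DDB1 in oxaliplatin against untreated, -0.35 with the GC and length offset and -0.35 with that offset and the replicate block. Counts of calls for oxaliplatin against untreated were 1512 of all genes, 1 nucleotide and 0 base excision repair genes with a 2-fold requirement, and 2 gap filling, 2 accessory nucleotide and 1 accessory base excision repair genes. Base excision repair had 3 calls with library size only, with no filter, with the block and with offset and block, and the accessory base excision repair list had 2 in the first 3 of these. Calls over all genes with no filter and with offset and block are not given here, so those member counts cannot be set against a background. Library size scaling shifted the median of all genes by 0.13 (log2) and split the calls into 3395 higher and 1794 lower, against 2619 and 2504 in the main result.

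For sorafenib against untreated, all genes gave 322 calls with offset and block, 311 with the 2 groups alone, 1817 in DESeq2 and 314 with a 2-fold requirement. DESeq2 called 2 nucleotide and 1 base excision repair genes, 3 accessory nucleotide excision repair genes and 6 gap filling genes, and the offset called 1 base excision repair gene. Calls over all genes with the offset are not given here for sorafenib. The 2 groups alone left 0 accessory nucleotide excision repair genes and the 2-fold requirement 0 gap filling genes. Between the drugs the 2-fold requirement left 602 of all genes, 1 accessory base excision repair gene and 0 on every other list. DESeq2 called 2 nucleotide, 2 base and 2 accessory nucleotide excision repair genes. Its share over all genes between the drugs is not given here, so these counts cannot be set against a background. Nucleotide excision repair had 2 calls with the 1 CPM filter and with the offset, and 0 with no filter, with the 2 groups alone and without members that overlap another gene on the same strand. Base excision repair had 2 with the 2 groups alone and 0 with library size only. Accessory base excision repair had 1 with no filter, with the offset and with offset and block, and accessory nucleotide excision repair had 0 with library size only and with offset and block. Calls over all genes between the drugs under these filters, offsets, scaling and 2-group fits are not given here. These counts thus have no background either.

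Replicate numbers are shared between groups in the titles but did not pair the libraries: same-numbered libraries deviated together at -0.111 to 0.0359 over 9 pairs, and others at -0.104 to 0.162 over 18. With the replicate block, calls over all genes were 3773 for oxaliplatin, 184 for sorafenib and 809 between the drugs. The block left 0 accessory nucleotide excision repair and 0 gap filling genes called in sorafenib. Between the drugs it left 0 nucleotide, 0 base, 0 accessory nucleotide and 0 accessory base excision repair genes and 1 gap filling gene.

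With each library left out in turn, calls for oxaliplatin ranged from 2913 to 5403 over all genes, 2 to 5 for nucleotide and 1 to 6 for base excision repair, 10 to 14 for gap filling, 4 to 7 for accessory nucleotide and 2 to 4 for accessory base excision repair. For sorafenib the ranges were 113 (without sorafenib library 3) to 1743 (without sorafenib library 1), 0 to 1, 0 to 1, 0 to 6, 0 to 3 and 0 to 0 in the same order, and 1641 genes were called without untreated library 1. Between the drugs they were 572 (without oxaliplatin library 1) to 1949, 0 to 1, 0 to 1, 0 to 3, 0 to 1 and 0 to 2. Alternatives for the related lists were chosen after seeing the data. The cause of these changes was not tested. At the depth of these libraries 3 counts equal 0.138 to 0.182 CPM, and NEIL1 came down to 0.380 CPM in oxaliplatin library 2.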
